A study of Mus musculus with 16 samples.

Results

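Metallothioneins and the enzymes that clear superoxide and peroxide were followed in mouse quadriceps as 10 genes, picked by their symbols in the deposited expression table: Mt1, Mt2, Cat, Sod1, Sod2, Sod3, Gpx1, Gpx3, Hmox1 and Txnrd1. They are 10 of the 23970 gene symbols of that table. Each had 1 entry, none was listed at 0 in any library, and all 10 were among the 11256 genes tested. Since reads could be split between Mt1 and Mt2, their sum was followed as well.

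The quadriceps came from male C57BL/6NTac mice aged 16 weeks, all wild type, in 4 groups of 4 biological replicates. CON mice had eaten a diet with 10% of its energy from fat and HFD mice one with 60% for 10 weeks. CON-pre and HFD-pre muscles were taken under basal conditions, and CON-post and HFD-post muscles 3 h after 1 bout of treadmill running to exhaustion. All groups, rested mice included, had been accustomed to the treadmill and had fasted. The runners were kept without food after the test, and what was measured was polyadenylated RNA of the whole muscle. Expression is given as FPKM, a count of sequenced fragments divided by the length of the transcript and by the size of the library, so levels can be set side by side between genes of different length.

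Metallothioneins are small cysteine-rich proteins that bind zinc and copper, and their genes are switched on by the metal-sensing factor MTF-1 and by glucocorticoids. The enzymes act in sequence: superoxide dismutases turn superoxide into hydrogen peroxide, and catalase, glutathione peroxidases and the thioredoxin system remove the peroxide. Hmox1, which breaks down heme, and Txnrd1, which regenerates thioredoxin, are both known targets of the stress-sensing factor NRF2, whereas Cat is largely a peroxisomal enzyme. Muscle that contracts makes superoxide and peroxide, and these genes belong to its known defences against both.

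Mt1 and Mt2 are neighbours on chromosome 8 on the plus strand. Gene positions are from RefSeq GRCm38.p6, since the published loci overlapped the genes of that build in 692 of 692 cases and those of mm9, the build named in the study's methods, in 114. Mt2 spans chr8:94172618-94173567 and Mt1 chr8:94178883-94180327, with 5315 bases between them, and both are protein-coding. Their promoter windows are printed because these were the members that moved with exercise. Each window holds 250 bases before and 50 after a start site in the RefSeq table of GRCm38.p6, read 5′ to 3′ on the plus strand, and covers chr8:94178839-94179138 for Mt1 and chr8:94172368-94172667 for Mt2. The capitals mark matches to the core of the metal response element, the site MTF-1 binds, written TGCGCNC or TGCACNC and searched on both strands.
Mt1 promoter: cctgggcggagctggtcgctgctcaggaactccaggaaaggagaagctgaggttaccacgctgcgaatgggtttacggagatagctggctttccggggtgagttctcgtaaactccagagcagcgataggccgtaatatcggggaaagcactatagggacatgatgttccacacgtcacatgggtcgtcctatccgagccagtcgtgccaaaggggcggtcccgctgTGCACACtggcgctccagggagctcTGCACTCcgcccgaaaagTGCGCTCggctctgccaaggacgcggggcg
Mt2 promoter: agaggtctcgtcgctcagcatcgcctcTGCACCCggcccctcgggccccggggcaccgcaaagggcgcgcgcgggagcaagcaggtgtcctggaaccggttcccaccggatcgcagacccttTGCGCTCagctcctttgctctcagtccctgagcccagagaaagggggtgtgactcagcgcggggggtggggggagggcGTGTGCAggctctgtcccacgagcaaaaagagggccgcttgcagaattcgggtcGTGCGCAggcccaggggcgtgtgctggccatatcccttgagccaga

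The Mt1 window held 3 matches to the metal core and the Mt2 window 4, and none of these overlapped another motif searched. Of the 32851 promoter windows in the table, 25.7% held at least 1 match to either form, 1.97% held 3 or more and 0.517% held 4 or more. The start site used for Mt2 is the first base of the annotated gene, whereas that used for Mt1 lies 206 bases inside it. The Mt1 window also held 1 match to the glucocorticoid response element, an inverted repeat searched on both strands (in 0.475% of all windows). The Mt2 window held 1 match to the antioxidant response element core TGACNNNGC, the site NRF2 binds with small MAF proteins (in 12.4% of all windows). Cat, the other member called in any comparison, had no match to these motifs, and the E-box CACGTG, found in 7.15% of all windows, was in none of the members' windows. Over the other members the antioxidant core matched once in Sod1 and once in 1 of the Txnrd1 windows, a search added after their values had been seen. Of the 10 genes 8 have a window in the table, and Sod3 and Hmox1 do not. A match is a run of letters and not a bound site.

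**Figure D1:**
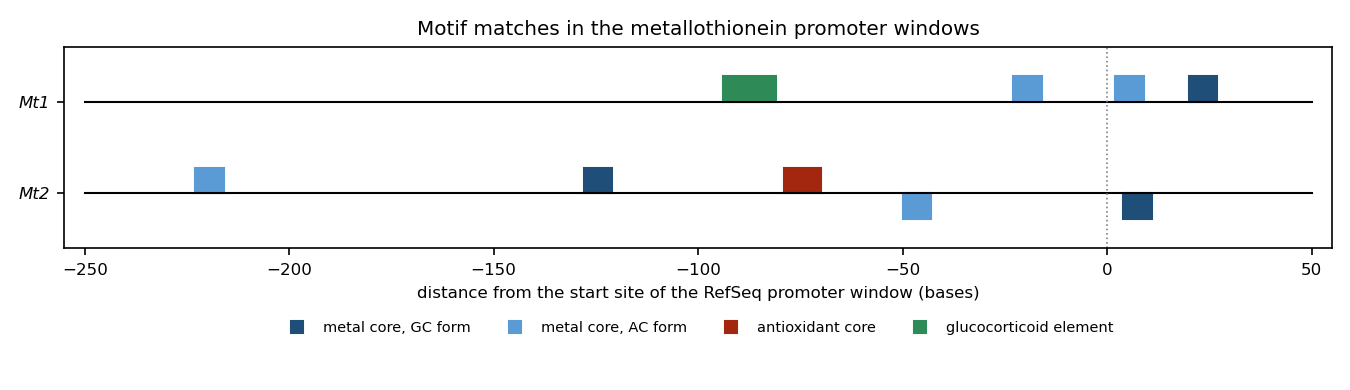
Motif matches along the Mt1 and Mt2 promoter windows, from 250 bases before to 50 after the start site of each window (x axis, bases). Boxes above a line lie on the same strand as the gene and boxes below it on the opposite strand. Mt1 has 3 metal cores and 1 glucocorticoid element, and Mt2 has 4 metal cores and 1 antioxidant core.

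The libraries were close to each other. Their FPKM summed to between 283575 and 329282, their depth, relative to CON-pre replicate 1 and taken from low values, ran from 0.702 to 1.13, and log2 values correlated between libraries with r from 0.966 to 0.984. Read counts per library are not used here, so no counting interval is given. All 14 muscle markers were detected in every library and summed to between 65788 and 88122 FPKM. In whole muscle a change in the share of a cell type and a change in RNA per cell cannot be told apart.

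At rest on CON, the order of the group means ran from Gpx3, at 145.1 FPKM, to Sod3, at 5.10. Gpx3, which encodes the secreted glutathione peroxidase, stood above every other member in all 4 groups, with no overlap between its libraries and those of the next gene. In CON-pre it was followed by Sod2 (53.3 FPKM), Sod1 (51.9), Cat (39.1), Gpx1 (34.1), Mt1 (29.7), Txnrd1 (22.3), Mt2 (22.0), Hmox1 (7.5) and Sod3 (5.10). Among those neighbours, Sod1 and Cat alone did not overlap over the 4 libraries, and every other pair below Gpx3 did. After exercise the order shifted through the metallothioneins: Mt1 ranked just below Gpx3 in CON-post, at 76.6 FPKM, where its libraries overlapped those of Mt2, the next gene. In HFD-post Cat (61.9 FPKM) and Sod2 (58.2) ranked above Mt1 (51.9), and Mt2 ranked below Sod1, with overlap between each of these neighbours.

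Exercise on CON was read from CON-post against CON-pre. Mt1 was higher in all runners, and so were Mt2 and the sum. Mt1 measured 35.0, 32.2, 27.9 and 23.6 FPKM in CON-pre replicates 1 to 4 and 64.7, 100.6, 57.8 and 83.3 in CON-post. The lowest runner lay above the highest rested mouse. Mean levels were 29.7 ± 5.0 and 76.6 ± 19.3 FPKM (SD, n = 4 each), a log2 fold change of 1.33 ± 0.23 (SE) on log2(FPKM + 0.5), or 2.52-fold, with an adjusted p of 0.00518 by limma.

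Mt2 measured 33.1, 21.7, 24.0 and 9.33 FPKM in CON-pre and 38.0, 116.7, 50.8 and 48.0 in CON-post. The groups again did not overlap, but CON-post replicate 2 stood far above the other runners and CON-pre replicate 4 below the other rested mice. The log2 fold change of 1.49 ± 0.40 (SE) did not pass (limma, adjusted p = 0.0996). Without CON-post replicate 2 it was 1.15 (adjusted p = 0.205).

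The sum of both genes was followed because reads could be split between them, though it too can depend on the split, since FPKM divides by transcript length. It was 68.1, 53.9, 51.9 and 32.9 FPKM in CON-pre and 102.7, 217.3, 108.6 and 131.4 in CON-post. It rose 2.65-fold (log2 fold change 1.41 ± 0.28 SE, limma, adjusted p = 0.0147). Without CON-post replicate 2 the sum still passed, at a log2 fold change of 1.17 and an adjusted p of 0.0459, and Mt1 at 1.19 and 0.0195. In this comparison 1 of the 10 members was called, Mt1, against 1.11% of all genes tested. The groups of 2 members, Mt1 and Mt2, did not overlap, against 5.82% of all genes. Beside the rise on CON, 9 of 10 endothelial, 8 of 10 adipocyte and 7 of 8 smooth muscle markers had a higher mean in CON-post, none of them called, with median log2 fold changes of 0.16, 0.14 and 0.11 beside -0.01 over all genes. Of 6 blood markers tested 2 were higher (median -0.15) and of 4 liver markers 0 (-1.54). Of 14 muscle markers 7 were higher (0.00), of 10 fibroblast markers 6 (0.03) and of 10 macrophage markers 7 (0.03). None of these was called. The part of these cells in the rise was not tested.

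**Figure D2:**
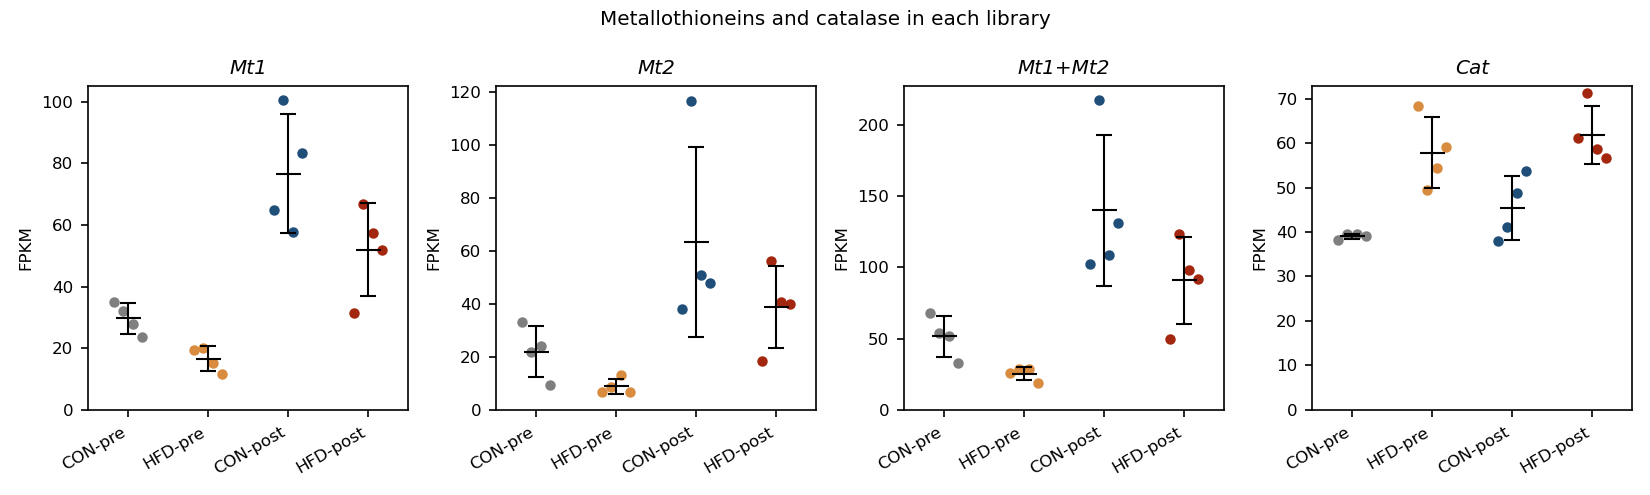
Expression (y axis, FPKM) of Mt1, Mt2, their sum and Cat in the 4 groups. Points are libraries, in replicate order from left to right within a group, and black bars are the mean and SD of 4. Metallothionein levels are higher in both post groups than in the pre group of the same diet, and Cat is higher on HFD.

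On HFD, exercise was read from HFD-post against HFD-pre, and here both metallothioneins passed. Mt1 measured 19.4, 20.2, 15.3 and 11.7 FPKM in HFD-pre and 31.3, 66.9, 57.5 and 51.9 in HFD-post. Every runner lay above every rested mouse, with HFD-post replicate 1 the lowest of the runners. Mean levels were 16.6 ± 3.93 and 51.9 ± 15.1 FPKM (SD, n = 4), and Mt1 rose 3.01-fold (log2 fold change 1.59 ± 0.23 SE, limma, adjusted p = 0.00377).

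Mt2 measured 6.65, 8.63, 13.1 and 6.89 FPKM in HFD-pre and 18.4, 56.3, 40.9 and 39.9 in HFD-post, again without overlap. It rose 4.07-fold (log2 fold change 2.02 ± 0.40 SE, limma, adjusted p = 0.0299). The call was lost in 6 of 16 fits that left out 1 library (HFD-pre replicate 1, 2 or 4, or HFD-post replicate 2, 3 or 4), with an adjusted p of up to 0.125, while the log2 fold change stayed between 1.81 and 2.34.

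The sum of the pair rose 3.39-fold on HFD, from 25.5 ± 4.75 to 90.8 ± 30.5 FPKM (SD, n = 4; limma, adjusted p = 0.00754). Thus 2 of 10 members were called, Mt1 and Mt2, against 0.542% of all genes tested, and the groups of 2 did not overlap, against 6.81%. No other member passed in either exercise comparison. The HFD and CON comparisons use separate mice at rest and after exercise. Beside the rise on HFD, 9 of 10 adipocyte markers and 5 of 6 blood markers had a higher mean in HFD-post, none of them called, with median log2 fold changes of 0.40 and 0.46 beside 0.04 over all genes. Of the endothelial markers 5 of 10 were higher, 1 of them called, and of the smooth muscle markers 6 of 8, with none called. Of 14 muscle markers 8 were higher, of 10 macrophage markers 8, of 10 fibroblast markers 4 and of 4 liver markers 0, with none called. HFD-post replicate 1, lowest of its group in both metallothioneins, was also lowest in its adipocyte (351 FPKM), blood (316) and macrophage (77.2) sums. The part of these cells in the rise was not tested.

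The difference between the exercise responses of the diets was tested as an interaction, and no member passed. For Mt1 the log2 difference of responses, HFD minus CON, was 0.26 (95% interval -0.43 to 0.94), for Mt2 0.53 (-0.67 to 1.73) and for the sum 0.35 (-0.49 to 1.19). These intervals reach from a smaller to a larger response on HFD, so the call of Mt2 on HFD and not on CON does not show that the diets differed. Leaving out 1 library moved the values over 1.5 times without changing their sign. Mt1 ran from 0.10 (without HFD-pre replicate 4) to 0.48 (without HFD-post replicate 1), and also moved without CON-post replicate 2 or 3 or HFD-post replicate 2. Mt2 ran from 0.30 (without CON-pre replicate 1) to 0.89 (without CON-pre replicate 4), and also moved without replicate 1 or 2 of CON-post or HFD-post. The sum ran from 0.18 (without HFD-post replicate 2) to 0.62 (without HFD-post replicate 1), and also moved in the absence of HFD-pre replicate 4, of CON-post replicate 1 or 2, or of CON-pre replicate 1 or 4. By limma 0 of the 11256 genes (0%) passed this test at an adjusted p under 0.05 and 356 had an unadjusted p under 0.05.

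Averaged over both diets, the exercise response of Mt1 was 1.46 ± 0.16 (SE) on the log2 scale (limma, adjusted p = 4.94e-05) and that of Mt2 1.76 ± 0.28 (adjusted p = 0.0017). That of the sum was 1.58 ± 0.20 (adjusted p = 0.000172). These 2 members were called of 10, against 3.86% of all genes tested. All 3 values passed in every one of the 29 alternative fits made for them. In the same average 9 of 10 adipocyte markers (median log2 fold change 0.26), 5 of 6 blood markers (0.09), 7 of 10 endothelial markers (0.09) and 7 of 8 smooth muscle markers (0.10) were higher, beside 0.01 over all genes, and 1 endothelial and 1 smooth muscle marker were called. Of 14 muscle markers 8 were higher, 1 of them called. Of 10 macrophage markers 8 were higher, of 10 fibroblast markers 4 and of 4 liver markers 0, with none called. The part of these cells in the averaged response was not tested.

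Diet was read at rest from HFD-pre against CON-pre. Catalase, the peroxisomal enzyme that splits hydrogen peroxide, was the 1 member of 10 called, against 0.346% of all genes. Cat measured 38.3, 39.5, 39.5 and 39.0 FPKM in CON-pre and 68.4, 49.5, 54.3 and 59.1 in HFD-pre. The CON-pre libraries lay within 1.03-fold of each other, and all HFD-pre libraries lay above them. The mean rose from 39.1 ± 0.57 to 57.8 ± 8.05 FPKM (SD, n = 4), 1.46-fold (log2 fold change 0.55 ± 0.11 SE, limma, adjusted p = 0.0458).

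The call at rest was lost in 11 of 16 fits without 1 library, with an adjusted p of up to 0.157: any CON-pre library, HFD-pre replicate 1, 3 or 4, CON-post replicate 3, or HFD-post replicate 1, 3 or 4. The log2 fold change itself stayed between 0.47 and 0.62. The call was also lost with no filter, no trend, a replicate block or a random replicate block, and held in 15 of 30 alternatives. After exercise Cat measured 38.1, 41.0, 48.9 and 53.8 FPKM in CON-post and 61.2, 71.2, 58.6 and 56.5 in HFD-post. The groups did not overlap there either, but the log2 fold change of 0.45 ± 0.11 (SE) did not pass (limma, adjusted p = 0.185). No member was called in that comparison, where 0.151% of all genes were, and Cat was the 1 member without overlap, against 3.16% of genes.

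Averaged over rest and exercise, Cat was higher on HFD by 0.50 ± 0.08 (SE) on the log2 scale, with an adjusted p of 0.00267 by limma, and passed in all 29 alternatives. Exercise gave Cat log2 fold changes of 0.20 on CON and 0.10 on HFD, neither of which passed (limma, adjusted p = 0.529 and 0.773). Over the alternatives these values ran from 0.12 to 0.28 on CON and from 0.02 to 0.18 on HFD.

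Red blood cells and fat cells also hold catalase, and their markers were read beside it. The 9 blood markers listed in the table summed to between 381 and 840 FPKM in CON-pre and between 260 and 483 in HFD-pre, and of the 6 tested 1 had a higher mean on HFD and none was called. Gata1 and Slc4a1 were among those listed at 0 in some libraries. The 10 adipocyte markers summed to between 382 and 491 FPKM in CON-pre and between 335 and 427 in HFD-pre, where 6 of 10 had a higher mean on HFD, 1 was called higher and 1 lower, and the median log2 fold change was 0.05. Cfd alone went from 105 FPKM in CON-pre to 27.4 in HFD-pre, while Fabp4, the most abundant of the list, was at 276 and 297. Lep, which encodes leptin, went from 0.514 FPKM in CON-pre to 4.52 in HFD-pre. Markers of muscle itself summed to between 80478 and 88122 FPKM in CON-pre and between 71594 and 77868 in HFD-pre, without overlap. Of those 14 markers 3 had a higher mean on HFD and none was called, with a median log2 fold change of -0.19 beside -0.03 over all genes. All 10 endothelial and all 8 smooth muscle markers had a higher mean on HFD at rest, none of them called, with median log2 fold changes of 0.19 and 0.15. The endothelial sums ran from 63.5 to 75.9 FPKM in CON-pre and from 68.5 to 83.4 in HFD-pre, and those of smooth muscle from 91.3 to 99.2 and from 92.8 to 112. After exercise the sums ran from 336 to 483 and from 316 to 906 for blood, and from 389 to 578 and from 351 to 679 for adipocytes, on CON and HFD respectively. There all 6 blood markers tested had a higher mean on HFD, none called, with a median log2 fold change of 0.36 beside 0.00 over all genes. The highest Cat came with the highest blood sum of its group in CON-pre (replicate 3, with replicate 2 nearly as high in Cat), HFD-pre (replicate 1) and HFD-post (replicate 2). In CON-post the highest Cat (53.8 FPKM, replicate 4) came with 424 FPKM of blood markers, below the 483 of replicate 3. The part of any of these cells in the level of Cat was not tested.

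Both metallothioneins were lower on HFD in their means. At rest the Mt1 libraries did not overlap between diets (11.7 to 20.2 FPKM on HFD against 23.6 to 35.0 on CON), which with Cat made 2 members against 5.62% of all genes. The log2 fold change of -0.83 ± 0.23 (SE) did not pass (limma, adjusted p = 0.193), nor did that of Mt2 at -1.19 ± 0.40 (0.376) or of the sum at -0.98 ± 0.28 (0.223). After exercise the values were -0.58 for Mt1, -0.66 for Mt2 and -0.63 for the sum, with overlapping groups and adjusted p of 0.669, 0.913 and 0.755 by limma. Without HFD-post replicate 1 they were -0.35, -0.34 and -0.36, and without CON-post replicate 2 -0.43, -0.32 and -0.39.

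Averaged over rest and exercise, the diet difference of Mt1 was -0.70 ± 0.16 (SE) and passed narrowly (limma, adjusted p = 0.0492). It passed in 12 of 29 alternatives, with an adjusted p of 0.0326 to 0.116, and was lost in 13 of 16 fits without 1 library, all but those without CON-pre replicate 4, CON-post replicate 3 or HFD-post replicate 2. Mt2 at -0.93 ± 0.28 (adjusted p = 0.18) and the sum at -0.81 ± 0.20 (0.0741) did not pass. With Cat higher and Mt1 lower, 2 of 10 members were called for diet, against 0.959% of all genes tested.

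The share of Mt2 in the sum of the pair ran from 25.6% in HFD-pre replicate 1 to 53.7% in CON-post replicate 2, the 1 library in which Mt2 was above Mt1. The mean log2 ratio of Mt2 to Mt1 was -0.55 ± 0.56 in CON-pre, -0.94 ± 0.57 in HFD-pre, -0.38 ± 0.49 in CON-post and -0.47 ± 0.22 in HFD-post (SD, n = 4). In 4 comparisons of these ratios, exact two-sided permutation tests gave p from 0.257 to 0.743, and adjusted p from 0.629 to 0.743, where the smallest p that 4 against 4 allows is 0.0286. How reads were assigned to these similar genes is not given in the sources used here, so how far the ratio depends on that assignment is not known.

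**Figure D3:**
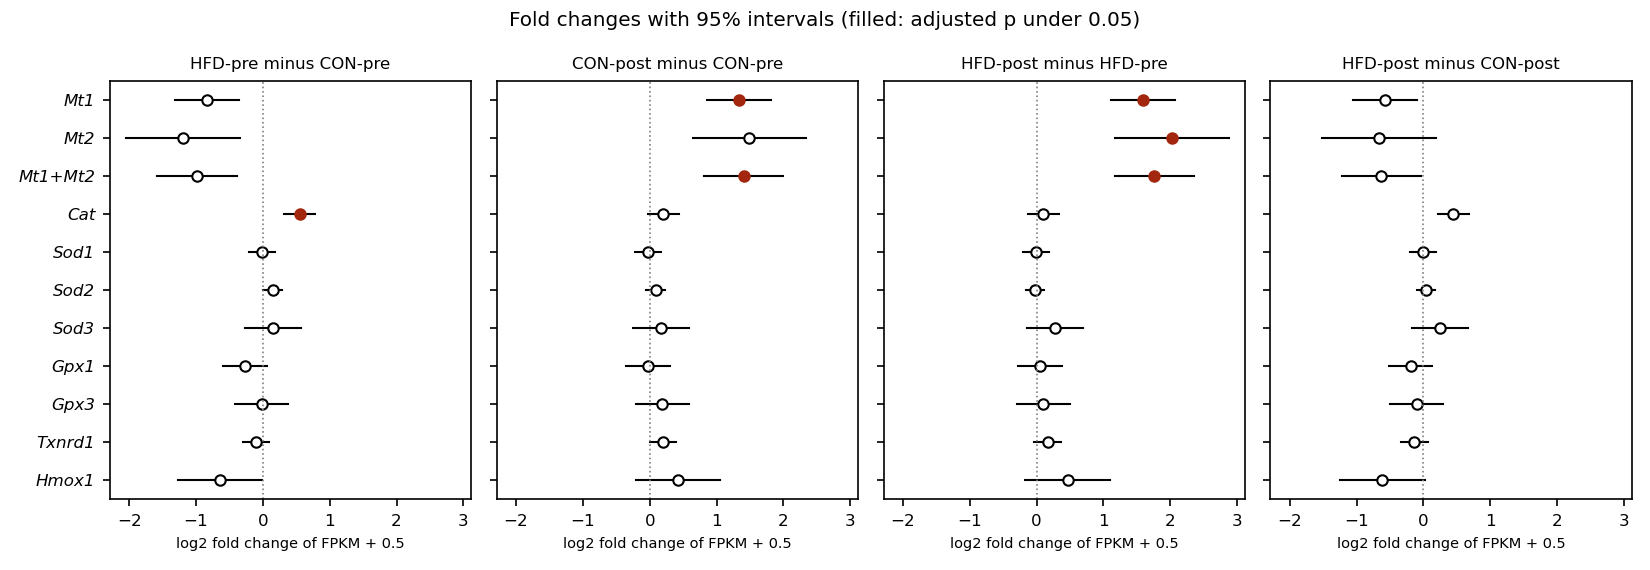
Log2 fold changes on log2(FPKM + 0.5) (x axis) of the 10 members and the Mt1+Mt2 sum in the 4 pairwise comparisons, with 95% intervals from limma. Filled points have an adjusted p under 0.05: Cat for diet at rest, Mt1 and the sum for exercise on CON, and Mt1, Mt2 and the sum for exercise on HFD.

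No superoxide dismutase was called in any contrast. Sod1, the cytosolic copper-zinc enzyme, had group means of 51.9 ± 5.49, 51.2 ± 4.32, 51.0 ± 6.20 and 50.6 ± 1.26 FPKM (SD, n = 4) for the rested CON and HFD mice and then the runners on CON and HFD. Its log2 fold changes in the 4 pairwise comparisons ran from -0.03 to 0.00, and every 95% interval lay between -0.22 and 0.19. Sod2, the mitochondrial manganese enzyme, had means of 53.3 ± 3.46, 59.0 ± 3.47, 56.6 ± 2.45 and 58.2 ± 3.04 FPKM in the same order, and its diet difference at rest was 0.15 (95% interval 0.01 to 0.28, limma, adjusted p = 0.562). Sod3, the secreted enzyme held in the matrix and vessel wall, was low at 4.24 to 10.4 FPKM, with the highest value in HFD-post replicate 4.

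The glutathione peroxidases, which use glutathione to reduce peroxides, overlapped in every comparison. Gpx1, the cytosolic form, measured 34.1, 29.99, 45.0 and 27.2 FPKM in CON-pre and 28.6, 27.4, 27.0 and 27.9 in HFD-pre, so that the HFD libraries were close together and CON-pre replicate 3 stood high. That library also had the highest blood sum of its group, at 840 FPKM, and the highest Gpx1 of HFD-post (33.2 FPKM, replicate 2) came with the highest blood sum of all, at 906 FPKM. In HFD-pre, too, the highest Gpx1 (28.6 FPKM, replicate 1) came with the highest blood sum of its group, at 483 FPKM. In CON-post the highest Gpx1 (39.7 FPKM, replicate 2) came with the lowest blood sum of that group, at 336 FPKM. Whether blood had a part in these values was not tested. The diet difference of Gpx1 averaged over rest and exercise was -0.23 (95% interval -0.46 to 0.00, limma, adjusted p = 0.481).

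Gpx3 ranged from 103.0 to 201.6 FPKM, both ends of it in HFD-post, and its 4 pairwise log2 fold changes lay between -0.10 and 0.19. Txnrd1, the cytosolic thioredoxin reductase, had means of 22.3 ± 2.06, 20.7 ± 1.80, 25.7 ± 2.18 and 23.4 ± 2.50 FPKM (SD, n = 4) in the same order of groups. Its exercise response averaged over diets was 0.18 ± 0.07 (SE; 95% interval 0.04 to 0.32) and did not pass (limma, adjusted p = 0.146), the smallest adjusted p among the 6 members Sod1, Sod2, Sod3, Gpx1, Gpx3 and Txnrd1 over all 7 contrasts. Over those genes and contrasts every log2 fold change lay between -0.27 and 0.27 and every 95% interval between -0.65 and 0.69. Some of the values nearest to 0 changed sign with the processing.

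**Figure D4:**
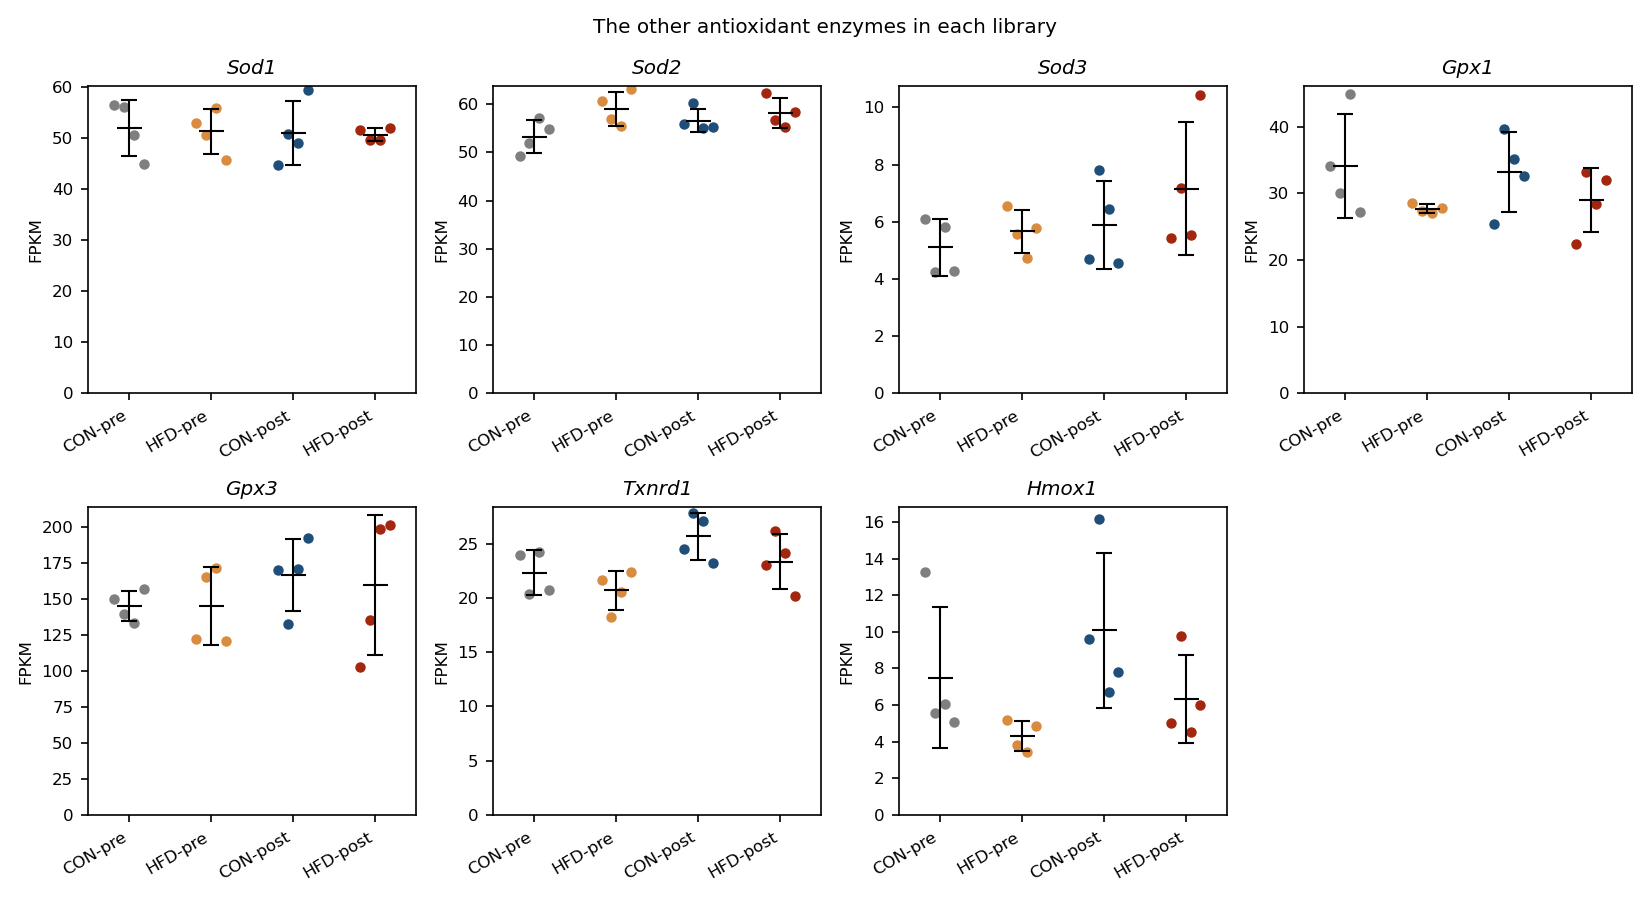
Expression (y axis, FPKM) of Sod1, Sod2, Sod3, Gpx1, Gpx3, Txnrd1 and Hmox1 in the 4 groups. Points are libraries and black bars the mean and SD of 4. In the 4 pairwise comparisons made, the groups overlap for each of these genes, and CON-pre replicate 1 (13.3 FPKM) stands apart for Hmox1. HFD-pre and CON-post, which were not compared, do not overlap for Txnrd1 (up to 22.4 and from 23.2 FPKM) or Hmox1 (up to 5.17 and from 6.72).

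Hmox1, the inducible heme oxygenase, measured 13.3, 5.58, 6.06 and 5.09 FPKM in CON-pre, 5.17, 3.79, 3.42 and 4.86 in HFD-pre, 9.60, 16.2, 6.72 and 7.82 in CON-post and 5.02, 9.79, 4.51 and 5.99 in HFD-post. CON-pre replicate 1 and CON-post replicate 2 stood highest, and groups overlapped in all 4 comparisons. The exercise response averaged over diets was 0.45 ± 0.21 (SE; limma, adjusted p = 0.268) and the diet difference -0.63 ± 0.21 (adjusted p = 0.229).

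Macrophages, which recycle heme, are rich in Hmox1, and their markers were read beside it. The 11 macrophage markers listed in the table summed to between 109 and 179 FPKM in CON-pre, 99.5 and 127 in HFD-pre, 83.4 and 233 in CON-post, and 77.2 and 165 in HFD-post libraries. Averaged over rest and exercise, 0 of the 10 tested were higher on HFD and none passed, with a median log2 fold change of -0.27 beside -0.02 over all genes. The sum was highest in CON-post replicate 2 (233 FPKM) and next in CON-pre replicate 1 (179 FPKM), the libraries in which Hmox1 was highest in its group, but CON-pre replicate 3 had nearly the same sum (178 FPKM) with 6.06 FPKM of Hmox1. On HFD the libraries differed. The sum was highest in replicate 4 of HFD-pre (127 FPKM) and of HFD-post (165 FPKM), and Hmox1 in HFD-pre replicate 1 (5.17 FPKM) and HFD-post replicate 2 (9.79 FPKM). Fcgr1 was listed at 0 in HFD-post replicate 1, and no other of the 11 markers was at 0 in any library. CON-post replicate 2 was also the library with the most Mt1 and Mt2. For exercise the median of the macrophage markers was 0.07 averaged over diets, beside 1.46 for Mt1. The part of these cells in the values of Hmox1 and the metallothioneins was not tested.

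**Figure D5:**
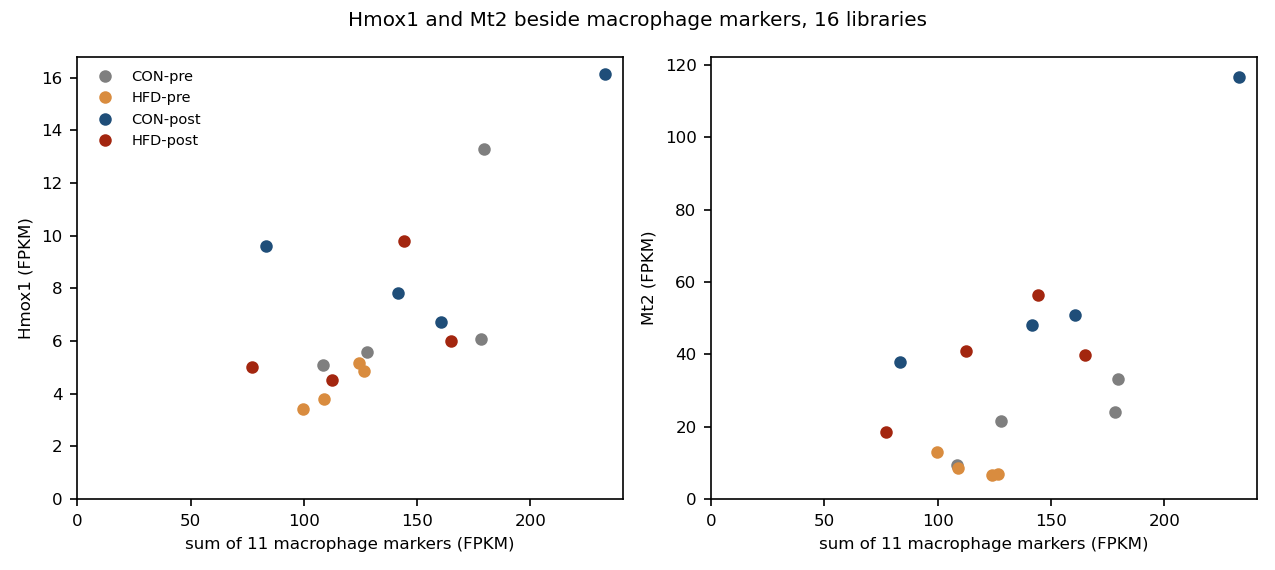
Hmox1 (left) and Mt2 (right), in FPKM, against the summed FPKM of 11 macrophage markers in the 16 libraries, coloured by group. CON-post replicate 2 is at the top right of both panels (233 FPKM of markers, 16.2 of Hmox1 and 116.7 of Mt2).

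Liver is another tissue rich in metallothioneins. Its 9 markers summed to at most 33.1 FPKM in any library, with medians of 12.3 in CON-pre, 9.72 in HFD-pre, 0.537 in CON-post and 2.22 in HFD-post, and the highest sum was in an HFD-post library. The part of liver RNA in these values was not tested. The spread within groups, as the median coefficient of variation over the 4 groups, was widest for Mt2 (42.3%) and Hmox1 (39.8%). Mt1 (24.4%) and Sod3 (22.8%) came next, followed by Gpx1 (17.3%), Gpx3 (16.8%), Cat (12.2%), Sod1 (9.51%), Txnrd1 (8.97%) and Sod2 (5.55%). Over all genes tested the median was 13.1%.

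The genes around the members were read from lists by role. Of 17 metal-handling genes tested, none was called in a pairwise comparison, and 1 passed for exercise averaged over diets, where 3.86% of all genes did: Slc30a2, a zinc exporter, rose from 3.75 to 5.29 FPKM (log2 fold change 0.44 ± 0.11 SE, limma, adjusted p = 0.0436). It passed in 11 of 29 alternatives and was lost in 11 of 16 fits without 1 library. The 20 genes of the glutathione system and the 11 of heme turnover gave 0 calls in any of the 7 contrasts. By unadjusted p under 0.05, 1 to 5 of the glutathione genes and 0 to 1 of the heme genes were reached in each contrast, where 356 to 2085 of the 11256 genes were. The smallest p of the glutathione list at rest was that of Gclm, a subunit of the enzyme that starts glutathione synthesis, at 6.81 FPKM in CON-pre and 4.97 in HFD-pre (limma, adjusted p = 0.147).

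Of 24 NRF2 pathway genes, 3 rose in both exercise comparisons and none fell, where 1.11% of all genes were called on CON and 0.542% on HFD. Srxn1, which repairs over-oxidised peroxiredoxins, went from 10.2 to 35.2 FPKM on CON (log2 fold change 1.68 ± 0.23 SE, limma, adjusted p = 0.000839) and from 9.75 to 26.1 on HFD (1.35, adjusted p = 0.0133). Mafk, a small MAF partner of NRF2, rose by 1.08 on CON and 0.87 on HFD, and Maff, another, by 1.45 and 1.13, on the log2 scale. On HFD the call of Srxn1 was lost when HFD-pre replicate 2 was left out (limma, adjusted p = 0.0588). That of Mafk was lost when HFD-post replicate 2 or 3 or HFD-pre replicate 2 was absent (adjusted p of up to 0.0645), and that of Maff in the absence of any of these or of HFD-pre replicate 3 (up to 0.0787). Averaged over diets 5 were called, against 3.86% of all genes, all higher after exercise: these 3, Bach1, a repressor at antioxidant elements (0.56), and Nfe2l2, which encodes NRF2 itself (0.31, adjusted p = 0.0206), which the rule for names had left out and which was chosen after its value was seen. Nfe2l2 passed in 25 of 29 alternatives and was lost under 3 scalings and without CON-pre replicate 1. Of the 24, 18 had a higher mean after exercise, and the list's median was 0.12 beside 0.01 over all genes. For diet 1 was called, against 0.959% of all genes, Tkt, the transketolase of the pentose phosphate pathway, at 6.02 FPKM on CON and 3.71 on HFD averaged over rest and exercise (limma, adjusted p = 0.0221), which passed in 23 of 29 alternatives and was lost without 1 library in 5 of 16 fits (CON-pre replicate 1 or 2, HFD-pre replicate 2 or 3, or CON-post replicate 2).

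Of 19 thioredoxin and peroxiredoxin genes, a list that also holds Srxn1, that gene was the 1 called in each exercise comparison, and averaged over diets Prdx5, a mitochondrial and peroxisomal peroxiredoxin (0.22), and Sesn1, a stress-induced sestrin (0.40), passed as well. The shares of all genes called were 1.11% on CON, 0.542% on HFD and 3.86% averaged. Prdx5 passed in 19 of 29 alternatives and Sesn1 in 13. On HFD at rest 1 fell, where 0.346% of all genes were called: Msrb1, the selenoprotein that reduces oxidised methionine, went from 93.9 to 65.4 FPKM (log2 fold change -0.51 ± 0.09 SE, limma, adjusted p = 0.0138), a call lost without any of 6 libraries (CON-pre replicate 1, 2 or 3, HFD-pre replicate 1, 2 or 4) at an adjusted p of up to 0.0626. It was also lost with a replicate block or with only the 2 groups compared, and held in 22 of 30 alternatives. Averaged over rest and exercise Msrb1 was again the 1 called for diet, against 0.959% of all genes. It was lower on HFD (-0.35, limma, adjusted p = 0.00935) and passed in all 29 alternatives.

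Of 28 peroxisomal genes other than Cat, 2 rose with HFD at rest, against 0.346% of all genes called. In that comparison 17 of the 28 had a higher mean on HFD, with a list median of 0.03 beside -0.03 over all genes. Ech1, an enzyme of fatty acid oxidation, went from 99.9 to 183.1 FPKM (log2 fold change 0.87 ± 0.10 SE, limma, adjusted p = 0.00109), and Crat, carnitine acetyltransferase, from 86.8 to 104.6 (0.27, adjusted p = 0.0466). The call of Crat at rest passed in 9 of 30 alternatives and was lost in 14 of 16 fits without 1 library. Averaged over rest and exercise 4 were higher on HFD, Ech1, Crat, Hsd17b4 and Pex11a (the last in 18 of 29 alternatives), and none lower, against 0.959% of all genes called, with a list median of 0.06 beside -0.02 over all genes. After exercise Ech1 alone passed between the diets (0.82, adjusted p = 0.00172), where 0.151% of all genes did. That call held in 29 of 30 alternatives and was lost when only the 2 groups compared were fitted (limma, adjusted p = 0.0818).

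Of 18 glucocorticoid-responsive genes, 1 was called for exercise on CON and none on HFD, against 1.11% and 0.542% of all genes. Trim63, the muscle ubiquitin ligase MuRF1, went from 129.0 to 308.8 FPKM on CON (log2 fold change 1.28 ± 0.22 SE, limma, adjusted p = 0.00637) and from 134.4 to 258.6 on HFD (0.95, adjusted p = 0.0877). No gene of any list passed the interaction test, and a call on one diet alone does not show that the diets differed. Averaged over diets 4 rose, Trim63, Foxo3, Fkbp5 and Fbxo32, against 3.86% of all genes called, and the list median was 0.29 beside 0.01 over all genes. Diet gave 0 calls in this list. Of 10 genes for sources of superoxide and peroxide, 2 rose with exercise averaged over diets, again against 3.86%, Nox4, an oxidase that releases peroxide (0.49, adjusted p = 0.00968), and Xdh, xanthine dehydrogenase (0.34, adjusted p = 0.0155), and none was called in a pairwise comparison.

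Where a list had no call in a contrast, the gene with its smallest p was looked up. In the pairwise comparisons these were Atox1, Slc30a2, Slc31a1 and Slc39a14 for metal handling, Gclm, Gclc and Gstp1 for glutathione, and Alas1, Fech and Alad, among others, for heme turnover. They were Tkt and Gclc for the NRF2 pathway, Prdx5 for thioredoxins, Dusp1, Trim63 and Fbxo32 for glucocorticoid-responsive genes, and Xdh and Nox4 for sources of superoxide. In the interaction they were Atox1, Gclc, Msrb1, G6pdx, Alad, Dusp1, Pex3 and Cybb, and in the averages Ftl1, Glrx5, Gclm, Fech, Alad, Fbxo32 and Xdh.

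The genes whose levels ran most like the members over the 16 libraries were ranked by Pearson r of log2(FPKM + 0.5), a description that carries the differences between groups. For the Mt1+Mt2 sum they were Bcl2l11 (r = 0.93), Lyve1 (0.89), Lpin1 (0.89), Jmjd1c (0.89) and Sik1 (0.87). Mt1 also had Ppargc1a (0.88) among its 5, and Mt2 Ednrb (0.86) and Cltc (0.85). For Cat they were Mgll (0.88), Stom (0.88), Decr1 (0.88), Vwa8 (0.88) and Dhrs4 (0.87). Decr1, a mitochondrial enzyme of unsaturated fatty acid oxidation, had group means of 28.6 and 30.2 FPKM in CON-pre and CON-post and 47.3 and 50.6 in HFD-pre and HFD-post.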

How the data were processed

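Quadriceps mRNA of 16 mice was sequenced, and 1 table of expression values was analysed. Per the labels and the methods, the authors prepared stranded libraries, aligned reads with TopHat and estimated genes with Cufflinks, and the deposited values are their FPKM. FPKM carries no depth, so no count model was used. The strand setting of the estimate and the tool versions are not given in the sources used here. From the 24487 entries, 27 with names turned into dates (0.0771% of FPKM) were left out and entries of the 260 repeated symbols were summed.

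The 11256 genes whose mean reached 0.5 FPKM entered limma 3.58.1 (R 4.3.3, statmod 1.5.0). Values were log2(FPKM + 0.5), the variance was allowed to follow the mean, and the 4 groups shared 1 fit without covariates, with Benjamini-Hochberg adjustment over all genes and a call at an adjusted p under 0.05. The 7 contrasts were 4 pairwise, the interaction and the averages over diets and over exercise states. Pairwise contrasts share groups. The Mt1+Mt2 sum was fitted in place of its members. The code was tested on simulated data. Motif searches used Python 3.11.15 with pandas 2.3.3, permutation tests numpy 2.4.6 and scipy 1.17.1, and plots matplotlib 3.10.9.

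The members and the lists were chosen with earlier results of these data known. Named genes are all members, at most the 4 called genes with the smallest adjusted p per list and contrast (where none, the gene with the smallest p), and the 5 genes most alike. Some genes that this rule names are not reported here. Lists share 9 genes. Markers of muscle, fat, macrophage, blood, endothelium, smooth muscle, fibroblast and liver cells were read beside the results. Endothelial markers summed to between 63.5 and 90.7 FPKM, those of smooth muscle to between 91.3 and 121 and those of fibroblasts to between 693 and 1104. The settings varied were the pseudocount (0.1 or 1), the filter (none, or a mean of 1 FPKM or more), 3 scalings, no trend, array weights, replicate blocks, a threshold of 0.1, repeated symbols left out, only the 2 groups compared, and each library left out.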

Additional observations from a re-analysis of the deposited data

Results flagged for a closer look

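In groups of 4 libraries a value was picked out when its gap to the nearest other library was large against the range of the group. Over the 44 groups examined (10 members and the sum in 4 groups), chance flags about 1 in 20, and 2 were picked out. Mt2 in CON-post replicate 2 was 116.7 FPKM, with the other runners on CON between 38.0 and 50.8. Hmox1 in CON-pre replicate 1 was 13.3 FPKM, with the others of its group between 5.09 and 6.06. The macrophage marker sums of these libraries, 233 and 179 FPKM, were the highest of their groups, although CON-pre replicate 3 had 178 FPKM, and whether those cells had a part in either value was not tested.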

How the results depend on the processing

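The values of the members, of the sum and of the listed genes that were called were recomputed under 13 or 14 other settings and without each of the 16 libraries in turn, and the Mt2 to Mt1 ratio with a pseudocount and without each library. Marker values were not recomputed. The numbers of members called were 1 for diet at rest, 1 for exercise on CON, 2 for exercise on HFD, 0 for diet after exercise, 0 for the interaction, 2 for exercise averaged and 2 for diet averaged. For diet at rest the number was 0 with no filter, no trend, a replicate block or a random replicate block, and ran from 0 to 1 without 1 library. For exercise on CON it was 2 at an adjusted p under 0.1, which added Mt2. For exercise on HFD it was 1 with no filter and from 1 to 2 without 1 library, Mt2 being lost. For diet averaged it was 1 with a pseudocount of 1, no filter, no trend or a random replicate block and from 1 to 2 without 1 library, Mt1 being lost. Of 2277 values of single members and the sum, 39 lost a call, 4 gained one and 2234 kept their side of the threshold. No called value changed sign. The sign of uncalled values near 0 changed 76 times, in Gpx1, Gpx3, Hmox1, Sod1, Sod2, Sod3 and Txnrd1. Of 33 called values of listed genes, 20 passed in every alternative, 13 were lost in some and 0 changed sign. The cause of these changes was not tested. The deviations of same-numbered libraries from their group means correlated with r over 0.1 in 5 of 24 pairs (range -0.22 to 0.21). Libraries of different numbers were not compared, so these values cannot show whether the numbers pair the samples. With the replicate block, Cat at rest had an adjusted p of 0.119 by limma, and no other call among the members and the sum was changed. Among listed genes, Crat and Msrb1 at rest, Pex11a for diet, and Sesn1 and Slc30a2 for exercise were lost with it. FPKM gives no counting error, so precision rests on 4 libraries a group.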
